A study of Mus musculus with 5 samples.

Results

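Retnla, Chia1, Chil1, Clec10a and Mrc1 encode a resistin-like protein, a chitinase, a chitinase-like protein and a pair of C-type lectins of macrophages and dendritic cells. They were taken by name, as the probes whose platform annotation names only that gene and that had a value on at least 4 of 5 arrays. Each gene had 1 such probe, and all 5 probes had a value on all 5 arrays, so the set is 5 of the 9715 genes measured. The arrays set lungs of 5 C3H mice, an inbred strain, given the egg protein ovalbumin for both sensitisation and challenge (ova mice 1 to 5) against a pool of control C3H lungs, 1 ova mouse on each 2-colour array, from amplified RNA. The sources used here do not give the mice's age or sex, how many controls were pooled, the challenge schedule or the dyes. The design asks which genes differ between the ova lung and the control pool. Between 11778 and 13320 of 17280 probes had a value on an array.

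The deposited values are signed log ratios whose base and numerator are not stated; they are read here as log2, and each array was centred on its median. The labels name the ova mouse first, which does not settle the numerator. Values are therefore given as below or above 0, and no statement is made on which lung held more RNA. The table holds ratios only, so no gene's level in either lung, and no lung marker's presence, can be read from it. In RNA from whole lung, a difference in the number of cells of a type and a difference in RNA per cell cannot be told apart.

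RELM-alpha, the product of Retnla, is a small secreted cysteine-rich protein made by alternatively activated macrophages and by airway epithelium. The cytokines IL-4 and IL-13 act through the transcription factor STAT6 to switch on this gene and others of the type 2 response. Chia1 encodes acidic mammalian chitinase, which cleaves the chitin of insects, mites and fungi, and Chil1 a relative that binds such sugars but has lost the catalytic activity. Clec10a encodes a macrophage lectin for galactose-type sugars, and Mrc1 the macrophage mannose receptor, which takes up mannose-bearing glycoproteins.

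The promoter sequences of RefSeq (build GRCm38.p6) held 4 of the 5 genes, all but Clec10a; the deposited table names no build. Those of Retnla, Chia1 and Mrc1 are shown because these genes represent the resistin-like, chitinase and lectin groups and because their windows differ in the motifs they hold. Each line gives the 250 bases before the annotated start, on the plus strand, at chr16:48842359-48842608 for Retnla, chr3:106113132-106113381 for Chia1 and chr2:14229164-14229413 for Mrc1. Capitals mark matches on either strand to the motifs described next.
Retnla: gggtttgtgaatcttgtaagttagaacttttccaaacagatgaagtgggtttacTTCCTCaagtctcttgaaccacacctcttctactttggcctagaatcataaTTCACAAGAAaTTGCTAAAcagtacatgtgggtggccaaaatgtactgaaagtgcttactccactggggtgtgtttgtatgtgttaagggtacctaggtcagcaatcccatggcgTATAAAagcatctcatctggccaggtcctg
Chia1: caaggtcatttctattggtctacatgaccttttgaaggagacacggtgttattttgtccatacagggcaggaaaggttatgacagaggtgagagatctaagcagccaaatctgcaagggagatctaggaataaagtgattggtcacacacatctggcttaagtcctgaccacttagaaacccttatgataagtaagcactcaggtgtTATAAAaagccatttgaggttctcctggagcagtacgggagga
Mrc1: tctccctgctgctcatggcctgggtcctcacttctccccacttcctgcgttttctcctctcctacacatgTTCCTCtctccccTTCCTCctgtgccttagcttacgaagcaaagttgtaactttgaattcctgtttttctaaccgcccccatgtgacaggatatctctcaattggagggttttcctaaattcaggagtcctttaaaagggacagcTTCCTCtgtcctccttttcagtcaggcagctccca

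In all, 5 short motifs were searched on both strands. The STAT6 pattern TTCNNNNGAA occurred in the Retnla window as TTCACAAGAA, beginning 145 bases before the start, and in 5.85% of all 32851 promoter windows of this length. It was followed, 134 bases before the start, by TTGCTAAA, a match to the C/EBP pattern TTGCNNAA, which 9.56% of windows hold. A TATAAA box lay 30 bases before the start of Retnla and 43 bases before that of Chia1, against 12.4% of all windows. The ETS pattern GAGGAA, which PU.1 and related factors bind, had 3 matches in Mrc1 and 1 in Retnla, all on the opposite strand, and 23.3% of windows hold at least 1. The pattern TTCNNNGAA, which other STAT factors bind, was in no member's window and in 7.02% of all. The Chil1 window held none of the 5 motifs. No matches in these windows overlapped one another. A match says only that the letters are there; binding was not measured.

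All 5 genes lay below 0 in every ova mouse and passed the test, limma's moderated test of the mean ratio against 0 with Benjamini-Hochberg adjustment over all 9715 genes and a threshold of 0.05. Of all genes tested, 15.2% passed below 0 and 12.3% above it. All 5 members also had means below -1, which 1.27% of all genes combined with a pass. The members were chosen with such results known, so these counts describe them and do not test them as a set. The labels give 1 control pool, so the spread below is that among the ova mice only.

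Retnla, the resistin-like gene, had the lowest ratio of all genes in each of the 5 mice. Its values were -4.41, -5.17, -4.58, -4.98 and -4.82 in mice 1 to 5. They span less than 1 unit, with mouse 1 nearest to 0 and mouse 2 farthest. The mean was -4.79 ± 0.30 (SD, n = 5; limma adjusted p = 7.35e-07), which is 27.7-fold if the base is 2 and 121-fold if it is e. The next lowest gene was Clca1 in mice 1 and 3, Arg1 in mouse 2, Rnase2a in mouse 4 and Saa3 in mouse 5. The gap from Retnla to that gene ran from 0.06 in mouse 5 to 0.73 in mouse 1. Clca1 is a product of mucus-making goblet cells, Arg1 the arginase of alternatively activated macrophages, Rnase2a an eosinophil-associated ribonuclease and Saa3 an acute-phase protein gene.

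Of the 3 other resistin family genes looked for, Retnlb, made by goblet cells of the gut and airway, gave -0.07 ± 0.20 (n = 5, limma adjusted p = 0.544). It was above 0 in mice 1 and 3 and below 0 in the others, between -0.36 and 0.14. Retn, the fat-cell hormone resistin, had a value on 1 array only (0.12 in mouse 1), and Retnlg was not measured here. Retnla was thus the 1 family member of 2 with enough values that passed.

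Chia1, the acidic chitinase, had values of -1.59, -2.47, -2.06, -2.48 and -2.33 in mice 1 to 5. Mouse 1 again lay nearest to 0, apart from the other 4. The mean was -2.19 ± 0.37 (SD, n = 5; limma adjusted p = 0.000122), 4.55-fold under base 2, and ranked 17 from the lowest among all genes. Chil1, its catalytically inactive relative, stood at -0.44 in mouse 1 and from -1.40 to -1.19 in the rest. The 4 values of mice 2 to 5 lay close together and that of mouse 1 apart from them. Its mean was -1.13 ± 0.40 (SD, n = 5; limma adjusted p = 0.00137), 2.19-fold under base 2.

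Chit1, the second true chitinase of mammals, known from activated macrophages, also passed below 0 at -0.57 ± 0.36 (n = 5, limma adjusted p = 0.0118). Its values ran from -0.08 in mouse 1 to -1.08 in mouse 3. Ctbs, a lysosomal enzyme that trims chitobiose from glycoproteins, gave -0.08 ± 0.09 (n = 4), and Ovgp1, the oviduct glycoprotein of this family, 0.04 ± 0.12 (n = 4). Neither passed. The family was therefore split, with 3 of 5 measured genes below 0, none above it and a list median of -0.57, against 0.00 for all genes. Without Chia1 and Chil1, 1 of 3 passed and the median was -0.08. For all genes the share passing below 0 was 15.2%. Chid1 was blank on all arrays, and Chil3 and Chil4, the abundant Ym proteins of the allergic mouse lung, were not measured here. Whether the probes of these related genes share signal was not tested.

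Clec10a, the galactose-type macrophage lectin, had values of -0.87 in mouse 1, -1.56 in mouse 4 and from -2.07 to -2.03 in mice 2, 3 and 5. Mice 2, 3 and 5 were nearly equal and mouse 1 stood nearest to 0. The mean was -1.72 ± 0.52 (SD, n = 5; limma adjusted p = 0.00084), 3.28-fold under base 2. The mouse has a close paralogue, Mgl2, that was not measured here, so signal of the pair may be mixed, which was not tested. Mrc1, the mannose receptor, had values of -0.11, -1.80, -1.38, -1.21 and -1.64. It was close to 0 in mouse 1 and at -1.21 or lower in each of the other 4. The mean was -1.23 ± 0.66 (SD, n = 5; limma adjusted p = 0.00572), 2.34-fold under base 2. Without mouse 1 the mean of Mrc1 was -1.51.

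**Figure D1:**
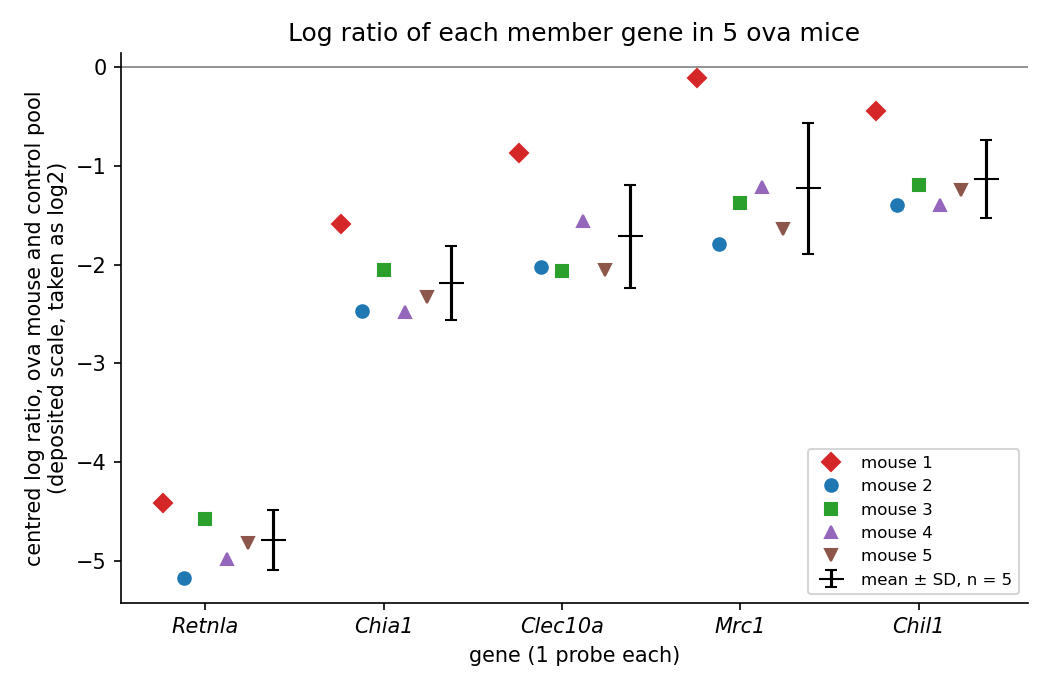
Centred log ratio (vertical axis, taken as log2) of each member gene (horizontal axis) in the 5 ova mice, 1 marker per mouse, with the mean ± SD beside it (n = 5). Every value lies below 0; Retnla lies between -5.17 and -4.41 and Mrc1 reaches -0.11 in mouse 1, whose marker is nearest to 0 for each gene.

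The order of the mean ratios, from the lowest, was Retnla, Chia1, Clec10a, Mrc1 and Chil1. Differences between neighbours were taken within each array, where centring cancels, and tested by an exact two-sided sign-flip permutation over the 5 mice, which with 5 mice cannot reach 0.05 whatever the values; 4 pairs were compared. Chia1 lay above Retnla by 2.61 ± 0.15 (SD, n = 5) in 5 of 5 mice (the smallest exact p that 5 mice allow; adjusted p = 0.125). That difference ran from 2.49 to 2.82 in the unscaled ratios. With arrays scaled to equal median absolute deviation, an alternative chosen after seeing the data, it ran from 2.00 in mouse 4 to 4.27 in mouse 1. Clec10a lay above Chia1 by 0.47 ± 0.37 in 4 of 5 mice, with the pair level in mouse 3 (exact p = 0.125, adjusted p = 0.167). Mrc1 lay above Clec10a by 0.49 ± 0.23 in 5 of 5 mice (the smallest exact p that 5 mice allow; adjusted p = 0.125). Mrc1 and Chil1 did not differ beyond their spread, with Chil1 above by 0.09 ± 0.34 in 3 of 5 mice (exact p = 0.5, adjusted p = 0.5). Ratios of different probes can be compressed to different degrees, so this order is one of measured ratios.

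**Figure D2:**
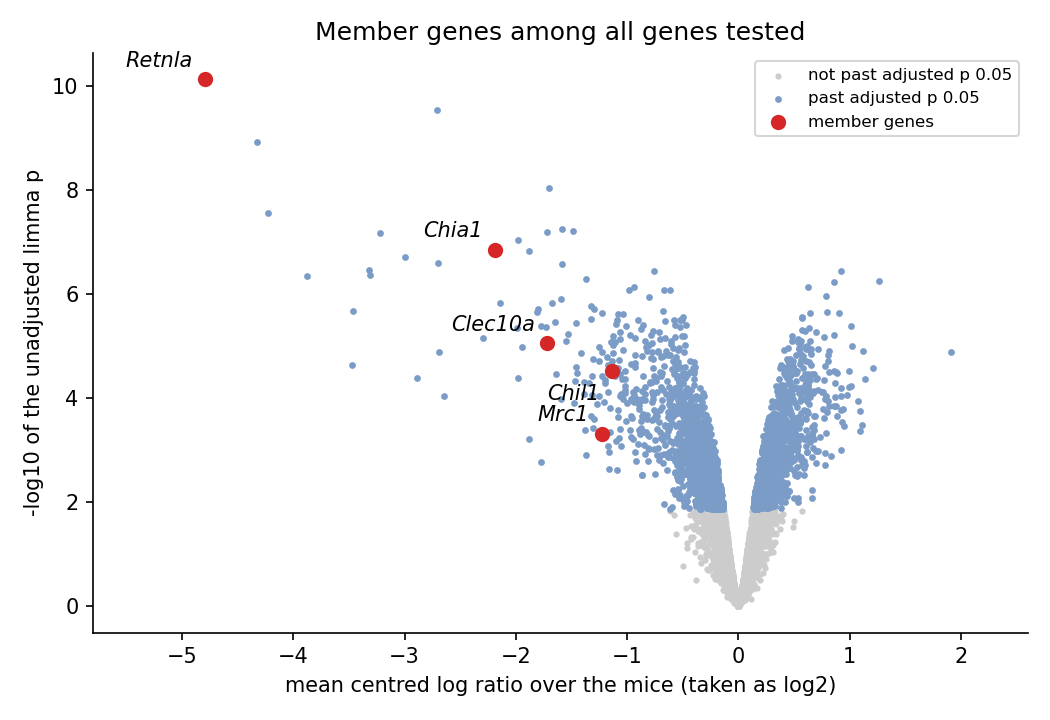
Mean centred log ratio of each of the 9715 genes (horizontal axis, taken as log2) against the minus log10 of its unadjusted limma p (vertical axis), blue where the adjusted p is under 0.05, with the members in red. Retnla lies at the far left at -4.79; the other 4 lie between -2.19 and -1.13, all past the threshold.

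Mouse 1 gave the value nearest to 0 for every member, and the members differed in how near. Its array had the narrowest ratios, with an SD over probes of 0.20 against 0.32 to 0.38 in the other mice. To set the members against this, 148 genes with 5 values and a mean below -1 in mice 2 to 5 were taken. This choice requires a value in mouse 1 but does not use its size. Their ratio in mouse 1 was 0.473 of the mean of the other mice at the median. Retnla kept 0.903 of its size in mouse 1, above 95.3% of these genes counting itself. The genes closest to it in mean over mice 2 to 5, Clca1, Rnase2a and Saa3, kept 0.82, 0.72 and 0.76. Most of the 148 genes had far smaller ratios than these. Chia1 kept 0.682. Clec10a, at 0.451, was near the median share. Chil1 kept 0.338 and Mrc1 0.073. Mrc1 ranked 5 from the lowest share, after Lair1, Ccl6, Ctsc and Pdgfc and just before Cd209e. These are an inhibitory collagen receptor, a macrophage chemokine, a lysosomal protease, a platelet-derived growth factor and a lectin related to DC-SIGN, named here after their values were seen. With every array scaled to the same median absolute deviation, Retnla in mouse 1 was 1.502 of the mean of the other mice, Chia1 1.14, Clec10a 0.747, Chil1 0.564 and Mrc1 0.120. Scaling divides each array by its own factor. The members' shares all rose and kept their order. The ranks and percentiles among the 148 genes are those of unscaled shares. Array and animal cannot be told apart here, since each mouse has 1 array.

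**Figure D3:**
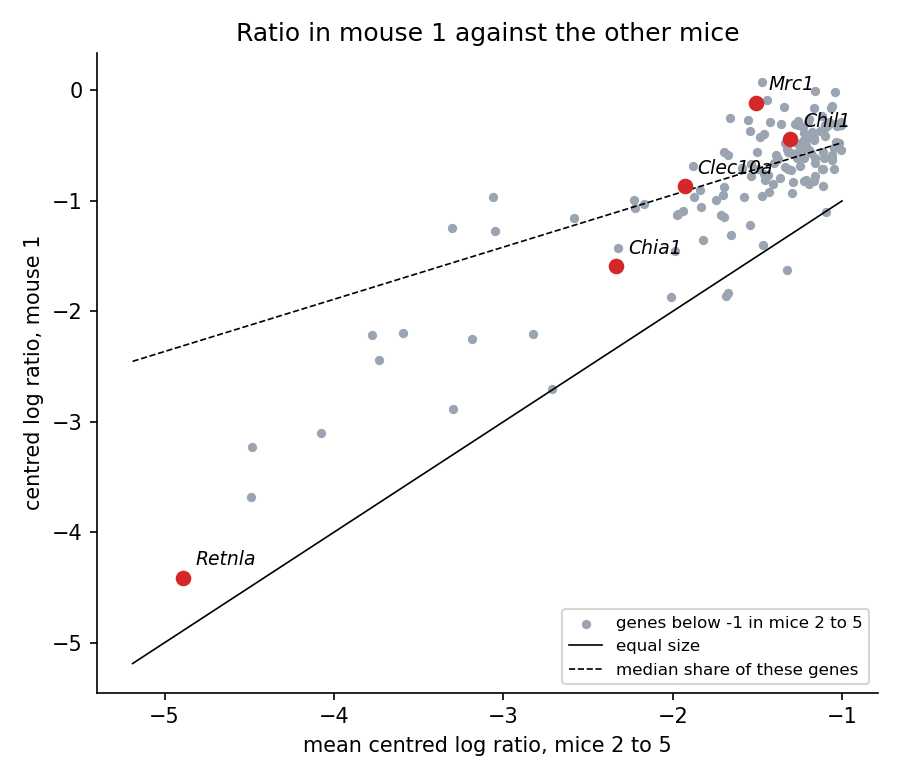
Mean centred log ratio in mice 2 to 5 (horizontal axis) against the ratio in mouse 1 (vertical axis) for 148 genes below -1 in mice 2 to 5, with the members in red; the solid line marks equal sizes and the dashed line the median share of 0.473. Retnla lies near the solid line and Mrc1 close to 0 in mouse 1.

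The members also differed in their spread over the mice. Relative to the size of the mean, the SD was 6.34% for Retnla, 17.1% for Chia1, 30.2% for Clec10a, 35.0% for Chil1 and 54.2% for Mrc1. Among the 118 genes that passed below -1 with 5 values the median SD was 0.45. The SD of Retnla was above 14.4% of them and that of Mrc1 above 85.6%, each counting itself. Without mouse 1 these relative SDs were 5.12% for Retnla, 8.44% for Chia1, 12.7% for Clec10a, 8.05% for Chil1 and 17.4% for Mrc1. Much of the spread of Chia1, Clec10a, Chil1 and Mrc1 thus came from that mouse. It gave the value farthest from the mean of each, so leaving it out had to lower their SDs. The fall was not compared with that of other genes. With arrays scaled to equal median absolute deviation the relative SDs of Retnla, Chia1, Clec10a, Chil1 and Mrc1 were 24.1%, 15.1%, 23.3%, 26.9% and 56.5%. Chia1, not Retnla, then had the smallest. Both alternatives were chosen after seeing the data.

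For each member the 3 genes of nearest pattern were taken as those with the smallest root mean square difference in centred log ratio over the mice, among 9714 others; all had 5 values. Clca1 (-4.33 ± 0.40), Rnase2a (-4.23 ± 0.60) and Saa3 (-3.88 ± 0.80) were nearest to Retnla, at differences of 0.49, 0.64 and 1.11. Nearest to Chia1 were the mitotic kinase gene Cdk1 (-2.14 ± 0.51), the complement gene C1qb (-1.99 ± 0.55) and Slpi (-1.88 ± 0.32), a protease inhibitor of airway secretions, at 0.33 to 0.34. Clec10a lay nearest to cell division genes, the kinesins Kif22 (-1.65 ± 0.44) and Kif23 (-1.68 ± 0.39) and the kinase Melk (-1.80 ± 0.44), at 0.12 to 0.14. Chil1 lay nearest to the cytokine signalling inhibitor Socs1 (-1.07 ± 0.35), the replication gene Gins1 (-1.02 ± 0.41) and the leukocyte receptor gene Lilr4b (-1.08 ± 0.37), at 0.13 to 0.15.

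The genes nearest to Mrc1 were Pdgfc (-1.17 ± 0.69, at 0.15) and the lectins Cd209e (-1.10 ± 0.62, at 0.21) and Cd209d (-1.38 ± 0.73, at 0.22). Cd209d had values of -0.25, -2.07, -1.65, -1.07 and -1.86 in mice 1 to 5, and Cd209e -0.15, -1.67, -1.44, -0.80 and -1.46. Both were thus near 0 in mouse 1, farthest below 0 in mouse 2 and nearer to 0 in mouse 4 than in mice 3 and 5, as Mrc1 was. They were chosen by nearness over these same mice, so this likeness follows from the choice. Whether the probes of Cd209d and Cd209e share signal was not tested. With arrays divided by their median absolute deviation, 13 of these 15 neighbours were again among the nearest 3, those of Mrc1 included. Many genes below 0 share the small ratios of mouse 1, and all arrays share the control pool, so nearness describes these 5 arrays only.

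**Figure D4:**
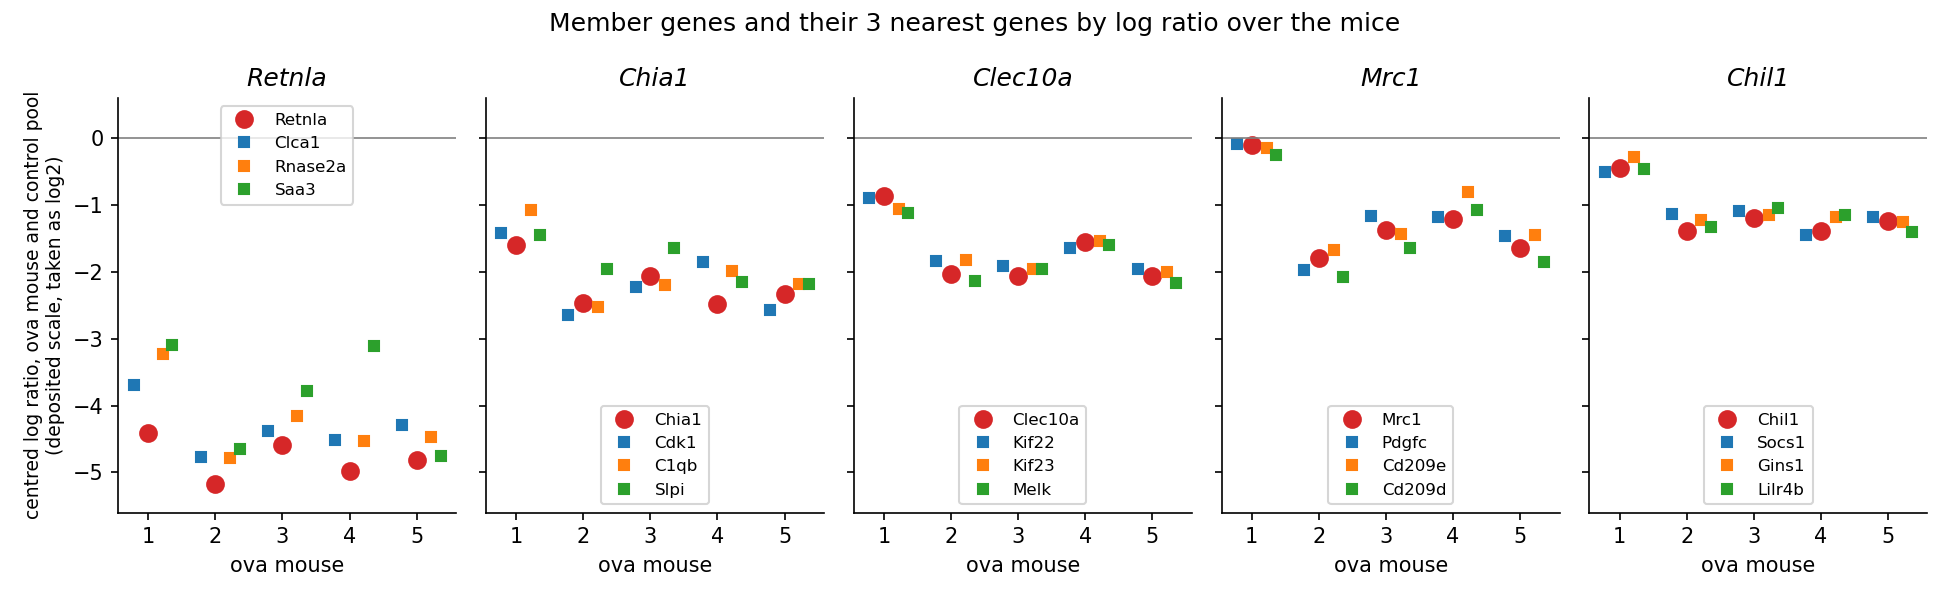
Centred log ratio (vertical axis, taken as log2) in each ova mouse (horizontal axis) of a member gene (red circles) and its 3 nearest genes (squares), 1 panel per member, with the squares set beside the circle of the same mouse. The squares in the Mrc1 panel lie between -0.25 and -0.08 in mouse 1, and those in the Clec10a panel are closest to their circles.

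Among C-type lectin receptors as a family, 9 of 23 measured genes passed below 0 and 2 above it, with a median of -0.14. For all genes the shares were 15.2% below 0 and 12.3% above it. Without Clec10a and Mrc1, 7 of 21 passed below 0 and the median was -0.05. Clec4a2 (-1.02 ± 0.35), an inhibitory receptor of dendritic and myeloid cells, its relative Clec4a3 (-0.61 ± 0.27) and the beta-glucan receptor Dectin-1 gene Clec7a (-1.31 ± 0.68) passed on the same side. Clec7a was between -0.37 in mouse 1 and -2.21 in mouse 5, so its farthest mouse was not that of Mrc1. Among receptors that did not pass, Clec4n (Dectin-2) gave -0.18 ± 0.52, Clec4d 0.07 ± 0.13, Clec4e (Mincle) 0.08 ± 0.11 and Ly75, a relative of Mrc1 in structure, 0.04 ± 0.15; these 4 are named after their values were seen. Pla2r1 (0.27 ± 0.20), another receptor of the mannose receptor family, and Clec2d (0.40 ± 0.32), a ligand of natural killer cell receptors, passed above 0. Pla2r1 lost its call without mouse 2, 3 or 5 and Clec2d without mouse 1, 3, 4 or 5, with limma adjusted p-values up to 0.0967 and 0.11, and 0 to 1 genes of the list then passed above 0. Cd209a, Cd209b, Cd209c and Mrc2 had too few values to test.

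Of 17 measured galectins, siglecs and soluble lectins, 8 passed below 0 and 1 above it, with a median of -0.25. The shares of all genes were 15.2% and 12.3%. Itln1, an intelectin of goblet cells (-0.77 ± 0.18), the galectin-binding glycoprotein gene Lgals3bp (-0.67 ± 0.20), the myeloid siglec gene Cd33 (-0.46 ± 0.20) and the galectin gene Lgals1 (-0.69 ± 0.37) had the smallest p. Siglecf, a siglec of eosinophils and of alveolar macrophages, was above 0 (0.30 ± 0.24) and lost its call without mouse 1, 2, 3 or 5. Without mouse 3 the count below 0 was 5.

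The IL-4 and IL-13 pathway was measured in part. Of 15 IL-4 and IL-13 signalling genes, 4 passed below 0 and none above it, with a median of -0.03. The shares of all genes were 15.2% below 0 and 12.3% above it. Socs1, a feedback inhibitor of cytokine receptors (-1.07 ± 0.35), and the kinase gene Jak2 (-0.51 ± 0.15) were the 2 whose calls held whichever mouse was left out. Tyk2 (-0.23 ± 0.15) lost its call without mouse 1, 2, 4 or 5 and Pik3cd (-0.18 ± 0.08) without mouse 2, 3, 4 or 5. Stat6 itself gave -0.27 ± 0.42 (n = 5, limma adjusted p = 0.193), between -0.96 in mouse 4 and 0.11 in mouse 2. The receptor chain gene Il13ra1 gave -0.03 ± 0.10 and the decoy receptor gene Il13ra2 0.01 ± 0.11 (n = 4), and neither passed. Il13ra2 lay at -0.01 with arrays scaled to equal spread or quantile normalized. The cytokine genes had values on 3 arrays each and were not tested: Il4 gave 0.06, -0.72 and -0.52 and Il13 -0.02, 0.08 and -0.22 in mice 1, 2 and 5. Il4ra was not measured here.

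Other genes of alternative macrophage activation shared the side of the members more often than not. Of 28 measured, 16 passed below 0 and 2 above it, with a median of -0.37. This list holds none of the 5 members. For all genes the shares were 15.2% and 12.3%. Rnase2a is given above. The macrophage elastase gene Mmp12 (-2.30 ± 0.68), Arg1 (-3.48 ± 1.23) and the chemokine gene Ccl8 (-2.89 ± 1.10) had the next smallest p on that side. Klf4, a transcription factor that STAT6 induces in macrophages and that endothelium and epithelium also express, passed above 0 at 0.91 ± 0.20, in 5 of 5 mice, and the lipid scavenger receptor gene Cd36 at 0.41 ± 0.17. The chemokine genes Ccl17 (-0.28 ± 0.09) and Ccl24 (0.00 ± 0.08), both STAT6 targets, were far smaller than Ccl8, and Ccl24 did not pass; they are named after their values were seen. Pparg (-0.14 ± 0.27) and Irf4 (-0.50 ± 1.02), transcription factors of this state also named after their values were seen, did not pass. Irf4 was 1.22 in mouse 4 and below 0 in the other 4 mice, and without mouse 4 it passed at -0.92 (limma adjusted p = 0.00866).

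Genes of classical, interferon-driven macrophage activation passed below 0 as well, with 10 of 21 below, 1 above and a median of -0.32. The shares of all genes were 15.2% and 12.3%. Cxcl9 (-3.47 ± 0.88), the GTPase genes Irgm1 (-1.18 ± 0.38) and Gbp3 (-1.23 ± 0.45) and the chemokine gene Cxcl11 (-1.13 ± 0.37) had the smallest p. Nos2, the inducible nitric oxide synthase that competes with arginase for arginine, gave -0.07 ± 0.14 and did not pass; it is named after its value was seen. Il12a, a subunit of interleukin-12, passed above 0 (0.27 ± 0.20) and lost its call without mouse 2, 3, 4 or 5.

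Cell type markers were counted beside the members, since the genes are carried by several cell types. Of all genes, 15.2% passed below 0 and 12.3% above it. Of 11 macrophage markers 6 passed below 0 and none above it (range -1.99 to -0.07, median -0.34). The myeloid transcription factor gene Spi1, which encodes PU.1, had -0.50 ± 0.04, the complement genes C1qb -1.99 ± 0.55 and C1qa -1.64 ± 0.60, and Aif1, a calcium-binding protein of macrophages, -1.20 ± 0.45. In mouse 1, 9 of the 11 markers had a higher ratio than their mean in mice 2 to 5, C1qa at -0.68 against -1.88 and C1qb at -1.07 against -2.22 among them. The array of mouse 1 had the narrowest ratios. Among the 148 genes below -1 in mice 2 to 5 the median share kept in mouse 1 was 0.473. The marker count was not compared with that of all genes. Spi1 (-0.57 against -0.48) and the integrin gene Itgax (-0.22 against -0.14), named here after their values were seen, were lower in mouse 1. Of 6 dendritic cell markers, Zbtb46 (-0.31 ± 0.10) and Irf8 (-0.34 ± 0.12) passed below 0 and none above it, with a median of 0.03. Of 4 eosinophil markers Rnase2a and Ccr3 (-0.39 ± 0.33) passed below 0 and Siglecf above it. Prg2 (-0.14 ± 0.27), named after its value was seen, did not pass. Rnase2a is also counted among the genes of alternative macrophage activation. Ccr3 lost its call without mouse 2, 3 or 5.

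Of 11 markers of the secretory airway epithelium, 6 passed below 0 and 3 above it, with a median of -0.47. The shares of all genes were 15.2% and 12.3%. Clca1, the mucin genes Muc5ac (-3.00 ± 0.55) and Muc5b (-1.32 ± 0.47, n = 4) and the trefoil gene Tff2 (-3.32 ± 0.51, n = 4) were below 0, and the club cell genes Cyp2f2 (0.95 ± 0.48) and Scgb1a1 (0.70 ± 0.36, n = 4) and the secreted defence protein gene Bpifa1 (0.55 ± 0.34) above it. Of 6 markers of alveolar type 2 cells, 3 passed above 0, Abca3 (0.27 ± 0.10), Sftpc (0.67 ± 0.39) and Napsa (0.21 ± 0.17), and Sftpd (-0.47 ± 0.36, n = 4) below it; Napsa lost its call without mouse 1, 2, 3 or 5 or without centring, and Sftpd without mouse 2, 3 or 4. The part of these cell types in the members' ratios was not tested.

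**Figure D5:**
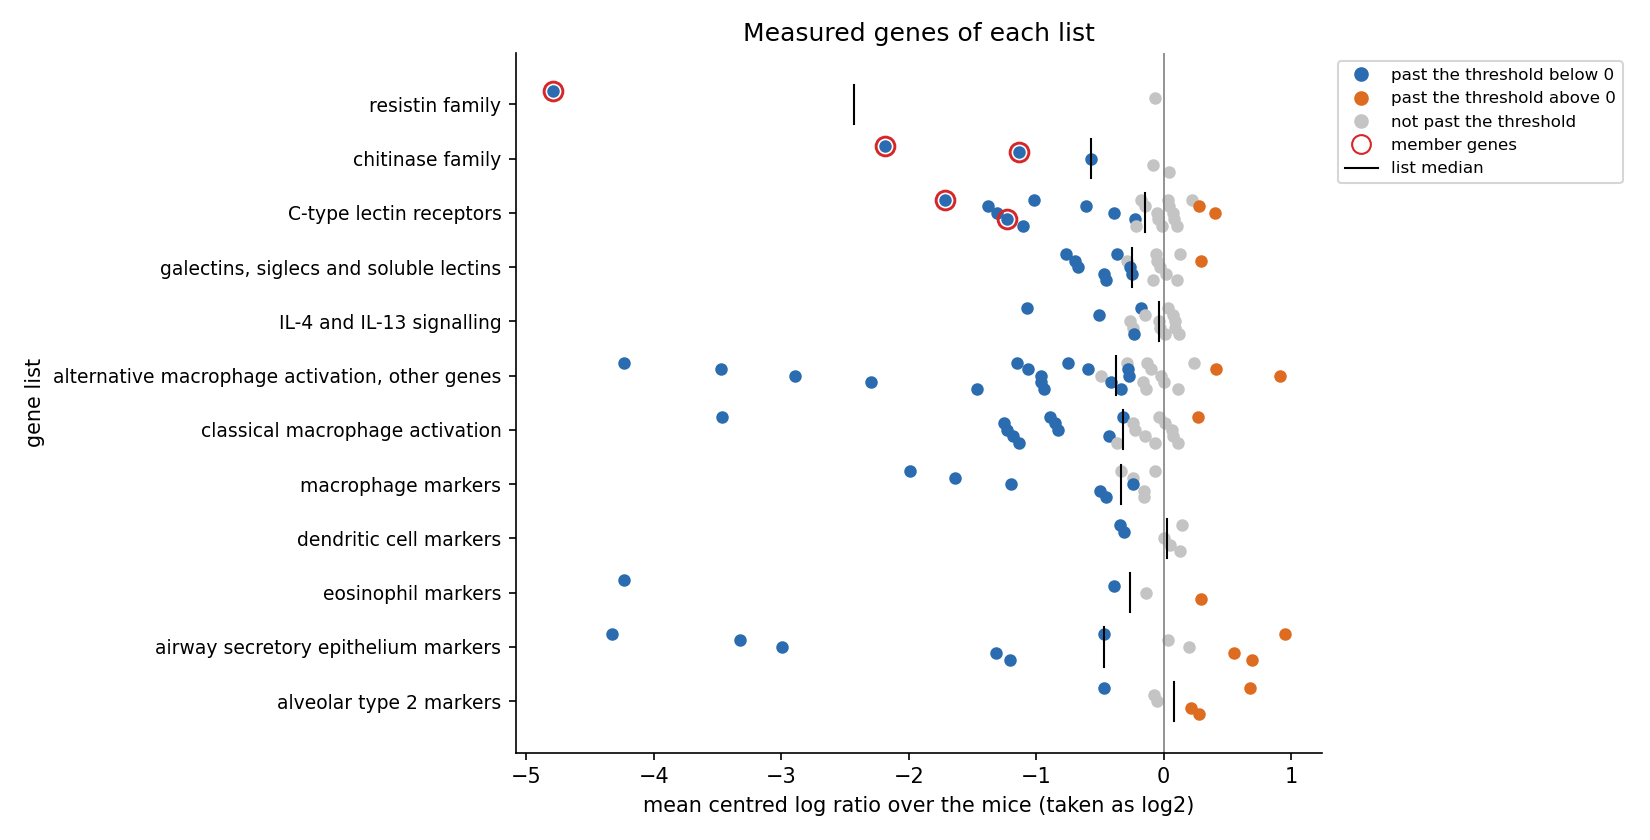
Mean centred log ratio (horizontal axis, taken as log2) of every measured gene of 12 lists (vertical axis), blue where it passed below 0, orange where it passed above 0 and grey where it did not pass; red rings mark the members and black bars the list medians. The members lie at or near the lowest end of their families, while the other genes of those lists spread from -1.38 to 0.40.

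Probe IDs may follow the printed layout of the array. Mean ratios of probes naming different genes correlated at ID distances of 6, 18 and 24, with Pearson's r of 0.14, 0.12 and 0.12 across 7359 to 7660 pairs of probes, which are not independent. At these distances from Mrc1 lay probes of Mmp12 (-2.30, at 18 IDs) and the glutathione transferase gene Gstm1 (1.14, at 6 IDs). In mouse 1 Mmp12 had a ratio of -1.16 and Mrc1 -0.11. Of the probes with enough values at those distances from the other 4 members, the one farthest from 0 was at -0.60, 18 IDs from Retnla. Carry-over between spots was not tested.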

How the data were processed

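The deposited table holds 1 log ratio per probe and array, and the sources used here do not say how the authors scanned, corrected or normalized the arrays. The unit is read as log2 from the deposited values: signed, with array medians between -0.015 and 0.008. Symbols came from GEO's platform annotation (1 symbol for 14722 of 17280 probes, several for 1, none for 2557); 14445 had a gene identifier in RefSeq's table, which changed 0 symbols. After median centring of the arrays, probes measured on 4 or more arrays were averaged per gene and array, and the resulting 9715 genes were tested against 0 with limma 3.58.1 in R 4.3.3 (lmFit and eBayes, two-sided, Benjamini-Hochberg). Arrays give no counts, so their number, 5, limits precision; the pool counts as 1 control sample. The fit was tested on simulated data with independent noise on each array. Such data hold no error shared through the control pool, so that error was not checked.

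The members and the 12 gene lists were chosen with earlier results of these data known. Named are the members, 3 nearest genes each, the resistin and chitinase families, the 4 genes of smallest p per side of each other list, and Il4, Il13, Il4ra, Il13ra1, Il13ra2 and Stat6; others are said to be named after their values. Alternatives covered centring, scaling, quantile normalization, the blank filter, probe averaging, robust eBayes, array weights, a minimum size and leaving out each mouse.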

Additional observations from a re-analysis of the deposited data

Results flagged for a closer look

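Chil1 had a ratio of -0.44 in mouse 1, and the nearest of the other 4 mice was at -1.19. The gap was 0.786 of the whole range, above Dixon's 95% critical value of 0.71 for 5 samples; chance passes about 1 in 20 groups. With arrays scaled to equal median absolute deviation, chosen after seeing the data, the gap was 0.459 of the range, under the critical value. In the unscaled ratios the same share was 0.653 for Mrc1, 0.577 for Clec10a and 0.525 for Chia1, each for mouse 1 and under the critical value.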

How the results depend on the processing

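In 16 alternative fits of each of the 5 members, 78 of 80 results stayed past the threshold. All 80 means lay below 0, which is no added support. Every member was below 0 in every mouse, so leaving out a mouse, array weights and scaling could not have moved a mean above 0. Each member has 1 probe with 5 values. The blank filter, probe averaging, robust eBayes and the minimum size could therefore not move the members' means. Against a minimum size of 0.5 (limma treat), Mrc1 (-1.23, limma adjusted p = 0.289) and Chil1 (-1.13, limma adjusted p = 0.0749) did not pass. Leaving out 1 mouse gave means of -4.89 to -4.70 for Retnla, -2.34 to -2.11 for Chia1, -1.93 to -1.63 for Clec10a, -1.51 to -1.08 for Mrc1 and -1.31 to -1.07 for Chil1, with limma adjusted p-values up to 0.0297 for Mrc1. Counts of all genes then ranged from 929 to 1440 below 0 and from 672 to 1133 above it, against 1477 and 1199; without mouse 3 they were 951 and 737, without mouse 5 929 and 672, and without mouse 2 794 above 0. Fewer arrays were tested in each. Over the same fits the counts below 0 were 5 to 8 for galectins, siglecs and soluble lectins, 2 to 4 for IL-4 and IL-13 signalling, 1 to 2 for eosinophil markers and 0 to 1 for alveolar type 2 markers. Above 0 they were 0 to 1 for C-type lectin receptors, for galectins, siglecs and soluble lectins, for classical activation, for eosinophil markers and for IL-4 and IL-13 signalling. With probes on all 5 arrays 0 alveolar type 2 markers passed below 0, and with probes on at least 3 arrays 4 alternative activation genes passed above it (32 genes tested). Of 360 list counts under the alternatives, 30 differed by over 1.5 times. No paired analysis was possible because the arrays form 1 group. Spot brightness was not used here, so faint spots could not be told from bright ones.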
